A study of Mus musculus with 6 samples.

Results

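The 10 transcription factor genes described here, *Ikzf1*, *Ikzf2*, *Ikzf3*, *Ebf1*, *Pax5*, *Tcf3*, *Tcf7*, *Satb1*, *Bcl11b* and *Lef1*, were chosen by name as regulators of lymphoid priming, and each was matched by its symbol to 1 mouse Ensembl gene among the 38293 genes counted. RNA was sequenced from sorted progenitors of the fetal liver (FL) that carry c-Kit and no lineage markers (FL Lin-cKit+ cells), taken from C57BL/6 embryos at E14.5. There were 3 embryos labelled hnRNPL wild-type (wt replicates 1 to 3) and 3 labelled hnRNPL Knock-Out (hnRNP L deficient replicates 1 to 3), each library being from 1 embryo. According to the study the deficient embryos were VavCre+hnRNP L fl/fl, in which the Vav promoter drives Cre in hematopoietic cells, so that stromal or hepatic cells would keep the gene. A figure legend of the study gives the sequenced wt samples as L fl/fl, without naming Cre. The labels name fetal liver cells as the source and whole embryo as the tissue, and the study's methods name the sorted FL fraction.

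Ikaros family proteins (*Ikzf1*, *Ikzf2*, *Ikzf3*) are zinc finger DNA-binding proteins that act with chromatin remodelling complexes, and *Ikzf1* is required for lymphoid development. The E protein gene *Tcf3*, with *Ebf1* and *Pax5*, forms the sequence of factors that starts and fixes the B cell program, whereas *Tcf7*, *Lef1* and *Bcl11b* act in T cell development. *Satb1* encodes a chromatin organizer that is active in the earliest lymphoid-biased progenitors and in thymocytes. In FL, lymphoid-primed progenitors are a minor part of the Lin-cKit+ fraction, in which erythroid and myeloid progenitors prevail.

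The clearest difference was in *Satb1*, which fell 7.10-fold. Its level, in CPM (reads scaled to a common library size with edgeR's TMM factors), had a mean of 32.4 ± 15.1 (SD, n = 3) among wt embryos and of 4.56 ± 0.756 (SD, n = 3) among hnRNP L deficient embryos. *Ikzf2* fell from 29.0 ± 8.57 to 11.5 ± 0.431 CPM (SD, n = 3 each). *Ikzf1* and *Tcf3*, the members with the highest levels, did not pass the test and differed between group means by less than the spread between wt embryos. The lineage-specific factors *Ebf1*, *Pax5*, *Bcl11b* and *Lef1* had at most 26 reads in any library. The test was edgeR's quasi-likelihood test over 14396 genes with Benjamini-Hochberg adjustment, and a gene was called at an adjusted p-value under 0.05. Of the 10 members 6 had enough reads to be tested, 2 were called lower and 0 higher, where 9.85% of all tested genes were called lower (1418) and 9.32% higher (1341). Scaled by total counts alone, 1751 genes were called lower and 1066 higher, with the same 2 members. At an unadjusted p-value under 0.05, 3 members were lower (*Tcf7* being the added one) and 0 higher, where 20.1% of all tested genes were lower and 17.6% higher, and DESeq2 and limma-voom called 0 members higher. In bulk RNA, fewer cells of a type and less RNA per cell cannot be told apart.

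**Figure D1:**
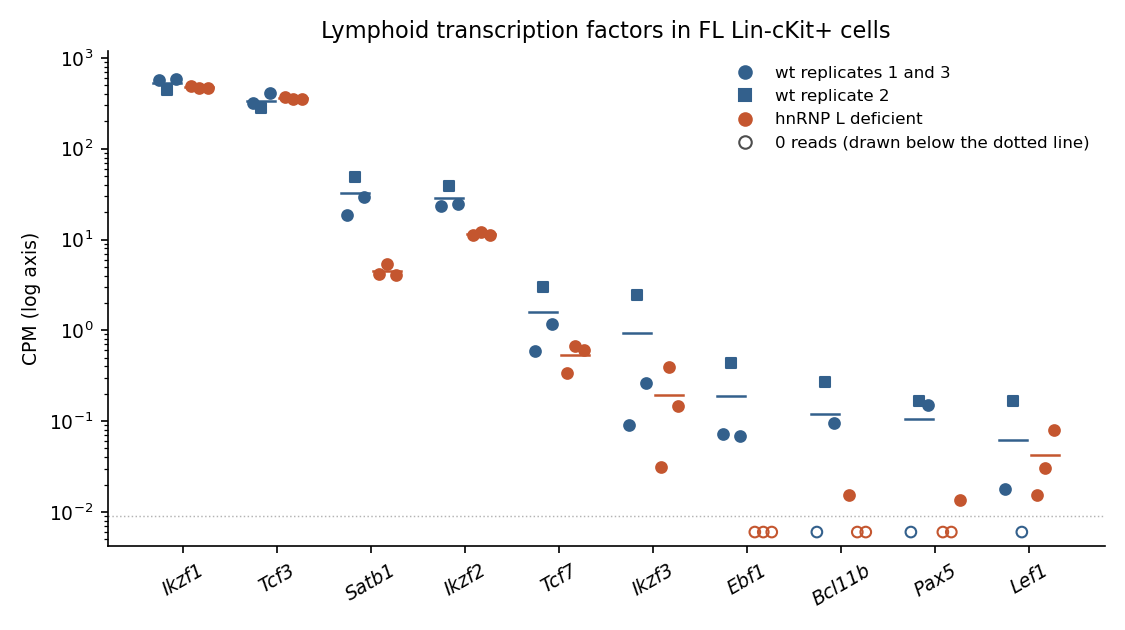
CPM of each member (log axis) in each of the 6 libraries, with wt in blue (replicate 2 as squares) and hnRNP L deficient in orange. Horizontal lines are group means above the dotted line, and open circles below it are libraries with 0 reads. The groups do not overlap for *Satb1*, *Ikzf2* and *Ebf1*, and wt replicate 2 is the highest wt library for 8 of the 10 members.

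The libraries held 55952160 to 76157226 reads on genes, at which 3 reads correspond to 0.0394 to 0.0536 CPM, and these depths cover counting error only. *Hnrnpl* was at 552, 531 and 528 CPM in wt and at 242, 288 and 270 CPM (269.5) in hnRNP L deficient cells, a log2 change of -1.01. This count covers the whole gene, of which Cre removes the floxed part, so that it does not measure the hnRNP L that remains. *Kit*, by which the cells were sorted, was at 423, 488 and 656 CPM in wt and at 368, 325 and 330.1 CPM in hnRNP L deficient cells and was called lower (log2 change of -0.62, edgeR adjusted p = 0.0402). The libraries differed in other cell types. The summed level of 11 granulocyte and monocyte markers was 610, 9474 and 1570 CPM (1569.8) in wt replicates 1 to 3 and 255 to 1084 CPM in hnRNP L deficient cells, with all 11 tested and 1 called lower. The 8 hepatocyte markers summed to 113 to 243 CPM in wt and to 21.3 to 73.8 CPM in hnRNP L deficient cells, with 1 called lower, and 12 mature lymphocyte markers summed to 11.2, 93.0 and 22.9 CPM in wt and to 4.97 to 8.95 CPM in hnRNP L deficient cells, with *Cd8a* and *Ms4a1* at 0 reads in all libraries. Their part in the results on the members was not tested.

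Per length, as CPM per kilobase of annotated exon, *Ikzf1* (92.8 ± 13.1, SD, n = 3) and *Tcf3* (83.9 ± 16.5, SD, n = 3) led in wt cells, above 96.6% and 96.1% of the tested genes, and their ranges overlapped. *Ikzf2* (2.50 ± 0.738), *Satb1* (1.70 ± 0.793) and *Tcf7* (0.607 ± 0.482) followed, and each overlapped the next in this order. *Ikzf3* was at 0.106 ± 0.149, and *Ebf1*, *Bcl11b*, *Pax5* and *Lef1* were at 0.0196 or less, with ranges that overlapped between neighbours. The only gap without overlap in wt cells was that between *Tcf3* and *Ikzf2*. In hnRNP L deficient cells *Tcf3* (88.6 ± 3.44, SD, n = 3) stood above *Ikzf1* (82.1 ± 2.62, SD, n = 3) without overlap, and *Satb1* at 0.240 ± 0.0397 overlapped *Tcf7* at 0.205 ± 0.0665.

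*Satb1* (ENSMUSG00000023927, chr17:51736187-51833290 of GRCm38, minus strand) was at 18.8, 48.6 and 29.7 CPM in wt replicates 1 to 3, and the hnRNP L deficient embryos had 4.13, 5.43 and 4.11 CPM. The groups did not overlap, and 22.7% of all tested genes likewise had all hnRNP L deficient libraries below the wt libraries. The fitted log2 change was -2.83 with a standard error of 0.355, and the adjusted p-value by edgeR was 0.0125. wt replicate 2 was the highest, and without it the log2 fold change was -2.41 and the call remained (edgeR adjusted p = 0.00238). Leaving out any 1 hnRNP L deficient library or wt replicate 3 gave log2 fold changes of -2.75 to -2.95 and adjusted p-values of 0.0530 to 0.0926, above the threshold. In those 4 fits only 5 to 17 of all genes were called.

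Exon bins are the pieces into which the annotated exons of a gene are divided, and their counts were used from 5 libraries, those of hnRNP L deficient replicate 1 being not analysed here. *Satb1* had 46 bins, of which 29 had a mean of at least 10 reads and were tested for a change of use relative to the other bins of the gene. In each of the 29 both hnRNP L deficient libraries were below the 3 wt libraries. A bin that passed through its wt reads alone had to be lower, and 20 of the 29 would have passed on the hnRNP L deficient libraries alone. All these bins hold largely the same reads as the gene count, so that the counts of lower bins are no separate evidence of the fall. None was called for a change of use at an adjusted p-value under 0.05. Bin 32 had the smallest unadjusted p-value by edgeR's exon test, 0.0773, with a change in use of 1.68 on the log2 scale. Bin 32 was at 0.234, 0.4002 and 0.440 CPM in wt and at 0.153 and 0.188 CPM in hnRNP L deficient cells, so that the change rests on few reads.

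*Ikzf2* (ENSMUSG00000025997, chr1:69531214-69687245, minus strand), the gene of the Ikaros family member Helios, was at 23.6, 38.9 and 24.4 CPM in wt and at 11.2, 12.03 and 11.3 CPM in hnRNP L deficient cells. The groups did not overlap and the 3 hnRNP L deficient embryos differed by 1.07-fold between highest and lowest. Its log2 fold change was -1.33 with a standard error of 0.203 (edgeR adjusted p = 0.0144), and -1.06 without wt replicate 2 (edgeR adjusted p = 0.00238). As for *Satb1*, the call was lost when wt replicate 3 or any 1 hnRNP L deficient library was left out, with adjusted p-values of 0.0530 to 0.0927 and log2 fold changes of -1.31 to -1.44.

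Most *Ikzf2* reads, between 81.1% and 90.8% of its bin reads, were in bin 1. Its 7 other bins together were at 3.47, 3.75 and 5.11 CPM in wt, and 1.91 and 1.31 CPM were found for hnRNP L deficient replicates 2 and 3. Bin 1 alone was at 22.1, 37.1 and 21.9 CPM in wt and at 11.1 and 10.7 CPM in hnRNP L deficient cells. Both parts were thus lower in hnRNP L deficient cells without overlap, and wt replicate 2 was high only in bin 1. An exact permutation test of 3 against 2 libraries gave p = 0.2 for each part, the smallest value it allows (two-sided). Bin 7 had the smallest unadjusted p-value of the 8 tested bins by edgeR's exon test, 0.0504, with 0.702, 0.550 and 0.633 CPM in wt, 0.0612 and 0.121 CPM in hnRNP L deficient cells and a change in use of -1.42 on the log2 scale. The deposited bins of *Ikzf2* and *Satb1* could not be placed on the annotation, since their number differs from that of the GENCODE annotation used here.

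*Ikzf1* (ENSMUSG00000018654, chr11:11685003-11772926, plus strand), encoding Ikaros, was at 579, 449 and 581 CPM in wt and at 492, 468 and 464 CPM in hnRNP L deficient cells. wt replicate 2 was below all others, so that the groups overlapped. For *Ikzf1* the log2 fold change was -0.18 with a standard error of 0.115 (edgeR adjusted p = 0.298). Without wt replicate 2 it was -0.29 with an edgeR adjusted p-value of 0.0259, and limma-voom with sample quality weights, which gave -0.26, also called it lower (adjusted p = 0.0221).

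The function of Ikaros isoforms depends on which of its zinc fingers they contain, since the N-terminal fingers bind DNA and the C-terminal ones bring the proteins together. The 19 deposited bins of *Ikzf1* equal in number those of the annotation and were placed on it in genomic order. A search of the longest annotated coding sequence, of 535 residues, for the pattern of a C2H2 finger found 5 matches, of which 1 lies within bin 11, 1 spans bins 12 and 13, 1 lies in bin 13, 1 in bin 14 and 1 in bin 17. Fingers that depart from the pattern are missed by such a search, so that 5 need not be the number in the protein. Bin 11, a coding exon at chr11:11748311-11748571 that is annotated in 2 of the 6 transcripts, is shown because transcripts differ by the whole exon, with the 63 bases that encode the finger in capitals.
Ikzf1 bin 11: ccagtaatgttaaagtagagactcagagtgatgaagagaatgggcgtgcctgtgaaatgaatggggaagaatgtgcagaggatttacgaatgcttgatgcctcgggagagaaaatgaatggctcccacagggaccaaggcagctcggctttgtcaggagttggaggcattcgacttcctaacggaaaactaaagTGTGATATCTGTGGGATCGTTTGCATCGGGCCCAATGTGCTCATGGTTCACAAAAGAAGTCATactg

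Bin 11 was at 45.8, 26.9 and 48.7 CPM in wt and at 35.4 and 33.8 CPM in hnRNP L deficient cells, and its change in use was -0.042 on the log2 scale (unadjusted p = 0.867 by edgeR's exon test). The bins of the following fingers changed in use by 0.15 (bin 12), 0.17 (bin 13) and 0.051 (bins 14 and 17) with unadjusted p-values of 0.488 or more by the same test. The largest difference was in bin 10, a 60-base coding exon annotated in 1 transcript, which was at 1.42, 0.634 and 1.01 CPM in wt and at 0.673 and 0.429 CPM in hnRNP L deficient cells. Its change in use was -0.71 with an unadjusted p-value of 0.218, and per 100 reads of bin 11 it had 3.11, 2.36 and 2.06 reads in wt and 1.90 and 1.27 reads in hnRNP L deficient cells. These values did not overlap, but 3 against 2 libraries cannot go below p = 0.2 in an exact test. None of the 19 bins of *Ikzf1* had an unadjusted p-value under 0.05. The first-exon bins 1 and 2 had 1.44, 0.656 and 1.26 times the reads of the alternative first-exon bins 3 to 6 in wt and 1.14 and 1.05 times in hnRNP L deficient cells, so that only wt replicate 2 stood apart. That library also had the lowest ratio of bins 7 to 9, near the start of the gene, to bin 18, near its end, with 0.133 against 0.200 and 0.225 in the other wt libraries and 0.198 and 0.209 in hnRNP L deficient cells.

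*Ikzf3* (ENSMUSG00000018168, chr11:98464902-98546031, minus strand), encoding Aiolos, which acts in committed lymphocytes, was at 0.09002, 2.43 and 0.262 CPM in wt and at 0.0311, 0.398 and 0.147 CPM in hnRNP L deficient cells, corresponding to 5, 146 and 19 reads and to 2, 26 and 11 reads. wt replicate 2 held most of the wt reads. The log2 fold change of -2.26 had a standard error of 1.32 (edgeR adjusted p = 0.257), and without wt replicate 2 it was 0.096 (edgeR adjusted p = 0.953). With this spread between the wt embryos a difference between the groups was not detectable. Of the 186 bin reads of wt replicate 2, 97.3% were in bins 1 to 3 at the end of the gene, and 8 of its 14 bins had no read in any library.

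*Tcf3* (ENSMUSG00000020167, chr10:80409514-80433647, minus strand) was at 323, 281 and 412 CPM in wt and at 374, 350.3 and 349 CPM in hnRNP L deficient cells. The hnRNP L deficient libraries lay within the wt range. A log2 fold change of 0.078 was fitted, with a standard error of 0.139 (edgeR adjusted p = 0.716), and its sign turned, to -0.090 with limma-voom and to -0.038 without wt replicate 2. *Tcf3* encodes the E proteins E12 and E47 through alternative use of a pair of exons that each encode a basic helix-loop-helix domain, of which the E12 exon comes before the E47 exon in the gene.

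**Figure D2:**
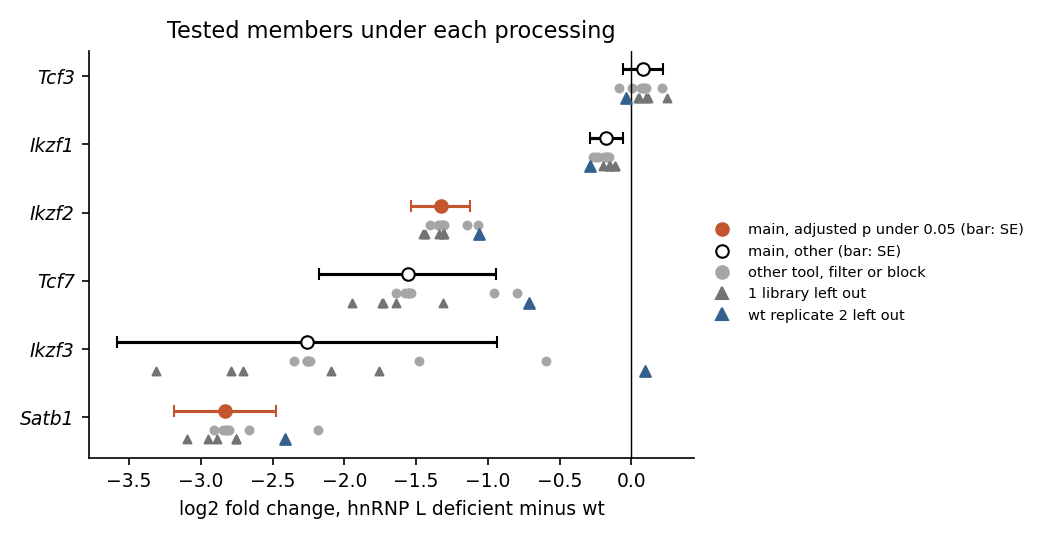
log2 fold change of the 6 tested members, hnRNP L deficient minus wt, as fitted (circles with the standard error, filled orange where the adjusted p-value was under 0.05), with the values of the other tools, filters and the fit with a block (grey circles) and with 1 library left out (triangles, blue without wt replicate 2). *Satb1* and *Ikzf2* stay below -1 throughout, whereas *Ikzf3* moves from -2.26 to 0.096 without wt replicate 2.

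The 42 deposited bins of *Tcf3* equal those of the annotation in number, and by this order bin 10 is the E12 exon (chr10:80412827-80413062, 236 bases) and bins 7 and 8 are the E47 exon (chr10:80410398-80410624, 227 bases). Both are coding exons, read here on the minus strand. The sequences are shown because they are the alternative parts of the mRNA, and capitals mark the bases that differ between them or have no partner in a global alignment, in which 183 of 222 aligned bases (82.4%) were identical.
Tcf3 E12 exon: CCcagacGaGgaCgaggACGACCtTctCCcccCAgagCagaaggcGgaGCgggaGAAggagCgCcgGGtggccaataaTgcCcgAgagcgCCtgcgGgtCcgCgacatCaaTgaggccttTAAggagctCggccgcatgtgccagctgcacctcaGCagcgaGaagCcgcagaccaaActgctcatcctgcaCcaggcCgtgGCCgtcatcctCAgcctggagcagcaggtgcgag
Tcf3 E47 exon: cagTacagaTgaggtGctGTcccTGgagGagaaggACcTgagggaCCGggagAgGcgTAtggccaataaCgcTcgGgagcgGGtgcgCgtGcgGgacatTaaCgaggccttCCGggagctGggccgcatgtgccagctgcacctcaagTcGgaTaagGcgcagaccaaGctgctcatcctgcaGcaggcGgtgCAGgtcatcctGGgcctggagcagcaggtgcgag

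In all 5 libraries the E47 exon had more reads than the E12 exon, and the intervals given here cover counting error only. E12 reads (bin 10) were 619 of the 2268 reads on bins 10 and 7 in wt replicate 1, which is 27.3% (95% Wilson interval 25.5 to 29.2%). The share was 27.4% (25.7 to 29.1%) in wt replicate 2 and 29.7% (28.4 to 31.1%) in wt replicate 3. It was 32.9% (31.3 to 34.5%) in hnRNP L deficient replicate 2 and 32.4% (30.9 to 33.9%) in replicate 3. Both hnRNP L deficient libraries were above the 3 wt libraries, by 4.51 percentage points between the means (wt 28.1 ± 1.38%, SD, n = 3), and the exact permutation test gave p = 0.2, the smallest value that 3 against 2 libraries allow. The edgeR exon test over all bins of the gene gave changes in use of 0.16 for bin 10 (unadjusted p = 0.522) and of -0.14 for bin 7 (unadjusted p = 0.557).

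Part of the E12 difference moved with bin 9, which extends the E12 exon by 200 bases beyond its 3′ end in 1 annotated noncoding transcript. Bin 9 had 24.4, 21.96 and 31.1 reads per 100 reads of bin 10 in wt and 34.7 and 33.02 in hnRNP L deficient cells. When its reads were subtracted from those of bin 10, the E12 share was 22.1, 22.7 and 22.6% in wt and 24.3 and 24.3% in hnRNP L deficient cells, a difference of 1.80 percentage points. The groups still did not overlap. A read that lies in bin 9 alone is also subtracted, whereas reads of the extended transcript that lie in bin 10 alone are not, so that these shares may err either way.

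Bin 18 of *Tcf3* was the only member bin with an unadjusted p-value under 0.05. It extends the exon of bin 17 by 362 bases into the neighbouring intron (chr10:80415927-80416288) and is annotated in 1 noncoding transcript, of the retained-intron class. It was at 1.48, 1.07 and 1.78 CPM in wt and at 2.65 and 2.61 CPM in hnRNP L deficient cells, with 5.15, 4.34 and 4.69 reads per 100 reads of bin 17 in wt and 8.50 and 8.02 in hnRNP L deficient cells. The change in use was 0.79 on the log2 scale with an unadjusted p-value of 0.0481 and an adjusted p-value of 1 by edgeR's exon test, and the DEXSeq model fitted with DESeq2 gave an adjusted p-value of 0.0191. Reads on no annotated exon, intronic reads among them, made up 10.98, 11.1 and 15.1% of uniquely aligned reads in wt and 12.7 and 12.6% in hnRNP L deficient replicates 2 and 3, within the wt range.

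**Figure D3:**
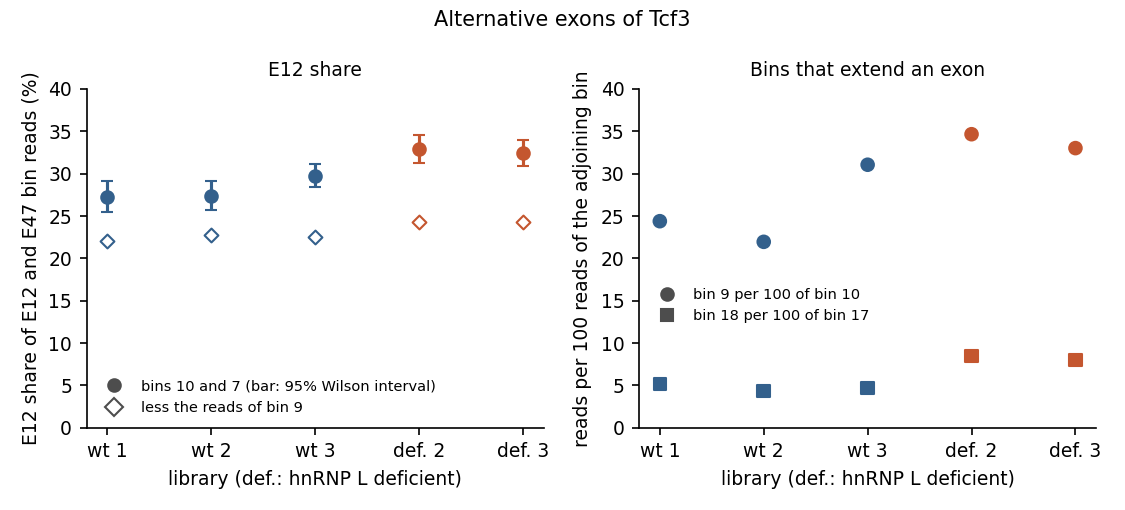
Left, E12 share of the reads on the E12 and E47 bins of *Tcf3* in percent for each of 5 libraries, with 95% Wilson intervals that cover counting error only, and the same after subtracting bin 9 (open diamonds). Right, reads of bin 9 per 100 of bin 10 (circles) and of bin 18 per 100 of bin 17 (squares); in each measure both hnRNP L deficient libraries (orange) lie above the 3 wt libraries (blue).

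Over all members 101 of 214 bins, in 6 genes, had enough reads to be tested. Of these 0 were called by edgeR at an adjusted p-value under 0.05, where 0.0288% of the 176996 tested bins of all genes were called, and 1 had an unadjusted p-value under 0.05, where 1.03% of all tested bins did. *Tcf7* had 3 tested bins with unadjusted p-values of 0.5004 or more and *Ikzf3* had 2, with 0.724 or more. *Ebf1*, *Pax5*, *Bcl11b* and *Lef1* had no bin with enough reads.

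**Figure D4:**
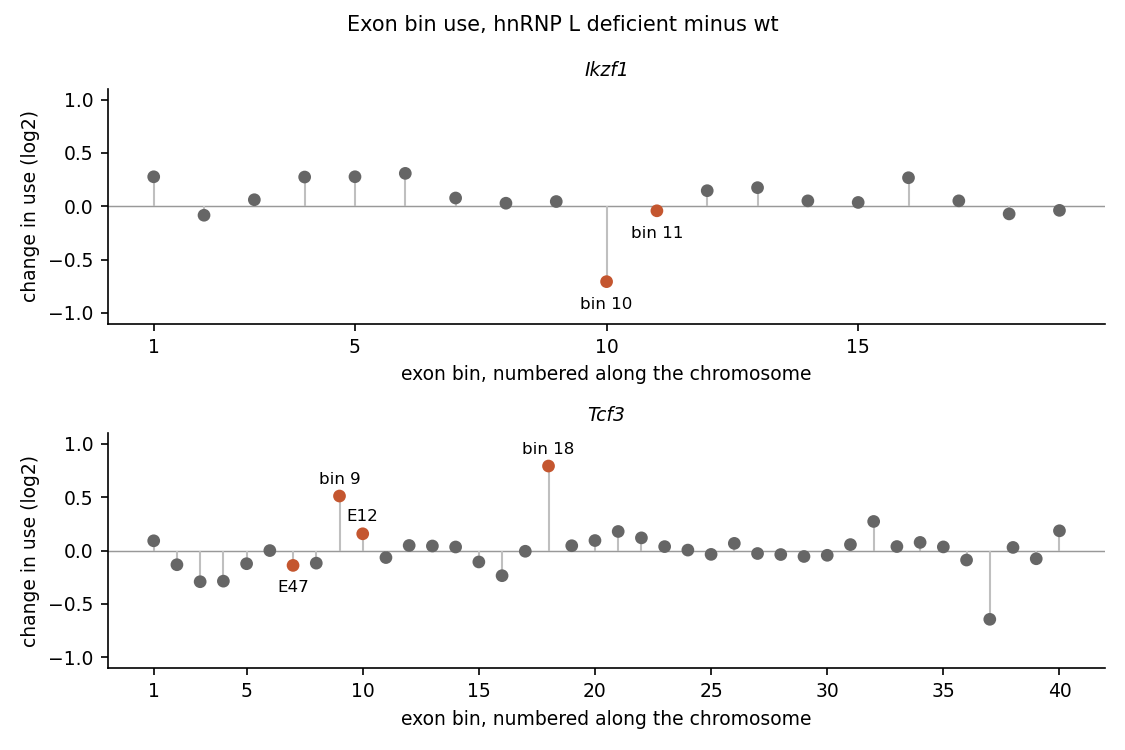
Change in use of each tested exon bin of *Ikzf1* and *Tcf3* (log2, hnRNP L deficient minus wt, relative to the other bins of the gene) against the number of the bin along the chromosome. The 2 largest rises in *Tcf3* are bins 18 (0.79) and 9 (0.51), the E12 and E47 exons move by 0.16 and -0.14, and bin 10 of *Ikzf1* is at -0.71.

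The factors that act with *Tcf3* in the B lineage were near the detection limit. *Ebf1* (ENSMUSG00000057098, chr11:44617317-45008091) had 4, 26 and 5 reads in wt and 0 reads in each hnRNP L deficient library. Set against a floor of 3 reads over the hnRNP L deficient group, the pooled wt level was 12.7-fold higher, and 4.78-fold higher without wt replicate 2. These ratios leave out the counting error of the wt reads and the spread between embryos, so that they are not lower bounds. *Ebf1* did not pass the expression filter. Without a filter edgeR gave it an adjusted p-value of 0.0441 and DESeq2 gave 0.00819, so that both called it lower. *Pax5* (ENSMUSG00000014030, chr4:44524757-44710487), which fixes B cell identity, had 0, 10 and 11 reads in wt and 0, 0 and 1 read in hnRNP L deficient cells, a ratio of 22.8 with a 95% counting interval of 3.67 to 943. wt replicate 1 and hnRNP L deficient replicates 1 and 2 were all at 0. *Pax5* was tested in 4 of the fits with a library left out and was called lower in 1 of them, without wt replicate 1 (edgeR adjusted p = 0.0221). Neither edgeR without a filter nor DESeq2 called *Pax5*.

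The T-lineage factors were low as well. *Tcf7* (ENSMUSG00000000782, chr11:52252371-52283014), encoding TCF-1, was at 0.594, 3.02 and 1.17 CPM in wt and at 0.342, 0.673 and 0.603 CPM in hnRNP L deficient cells. wt replicate 1 lay below hnRNP L deficient replicates 2 and 3, so that the groups overlapped. It had a log2 fold change of -1.56 with a standard error of 0.616 (edgeR adjusted p = 0.113), and -0.71 without wt replicate 2. DESeq2 called it lower (adjusted p = 0.0426), as did edgeR without wt replicate 1 (adjusted p = 0.0347). *Bcl11b* (ENSMUSG00000048251, chr12:107910403-108003602), required for T cell commitment, had 0, 16 and 7 reads in wt and 1, 0 and 0 reads in hnRNP L deficient cells, a ratio of 25.0 with a 95% counting interval of 4.06 to 1029. Like *Pax5*, it was called neither by edgeR without a filter nor by DESeq2. *Lef1* (ENSMUSG00000027985, chr3:131110471-131224356), the relative of *Tcf7*, had 1, 10 and 0 reads in wt and 1, 2 and 6 in hnRNP L deficient cells, a ratio of 1.33 with an interval of 0.500 to 3.62, so that no difference was detectable. These intervals cover counting error over the pooled reads and not the spread between embryos.

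wt replicate 2 was the highest wt library for 8 of the 10 members and the lowest for the remaining 2, *Ikzf1* and *Tcf3*. It was the library with the high granulocyte and monocyte markers. Without it *Satb1*, *Ikzf2* and *Ikzf1* were called lower. wt replicate 1 and hnRNP L deficient replicate 1 share the first part of their embryo numbers, as do hnRNP L deficient replicates 2 and 3, which the labels do not explain. Between wt replicate 1 and hnRNP L deficient replicate 1 the log2 difference (of CPM plus 0.1) was -2.16 for *Satb1*, -1.07 for *Ikzf2*, -0.65 for *Tcf7*, -0.54 for *Ikzf3*, -0.23 for *Ikzf1* and 0.21 for *Tcf3*. Both libraries are part of the group comparison, so that signs shared with it are no separate evidence.

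Across the 6 libraries *Satb1*, *Ikzf2* and *Tcf7* varied alike. Pearson's r of log2 CPM was 0.988 between *Satb1* and *Ikzf2*, 0.847 between *Ikzf2* and *Tcf7* and 0.837 between *Satb1* and *Tcf7*, whereas *Tcf3* had r of -0.374 with *Satb1*. These points share the group difference and the libraries, so that r describes the 6 libraries only. Among the 11619 tested genes with a mean of at least 1 CPM the patterns most like that of *Satb1* were those of *Adam11*, *Chka* and *Mndal* (r of 0.998 to 0.999), and for *Ikzf2* those of *Ccni*, *Atf6* and *Lrif1* (0.998 to 0.999). For *Tcf7* they were *Adssl1*, *Spi1* and *Mmp28* (0.997 to 0.9996), for *Ikzf1* *Ppp1r9a*, *Rapgef6* and *Itga4* (0.994 to 0.999) and for *Tcf3* *Fbxl18*, *Wiz* and *Slc25a53* (0.983 to 0.991).

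Other regulators of lymphoid development and relatives of the members were listed for comparison. This list and those that follow were chosen with earlier results of these data known, so that their counts of calls are not tests. Of 35 such genes 29 were tested, 9 were called lower, 1 was called higher and 19 did not pass, with a median log2 fold change of -0.68 against -0.026 over all tested genes, of which 19.2% were called in either direction. The largest falls among called genes with a mean of at least 1 CPM were those of *Irf8*, a factor of monocyte, dendritic and B cell development, with a log2 change of -3.02, and *Id3*, an inhibitor of E proteins, with -2.58. They were followed by *Tox* (-2.11), *Pou2f2* (-1.91) and *Zbtb16* (-0.99), with edgeR adjusted p-values of 0.0185 to 0.0447 over the 5 genes. *Irf8* was at 11.4, 55.9 and 23.4 CPM in wt and at 2.03, 4.35 and 4.80 CPM in hnRNP L deficient cells, again highest in wt replicate 2, and its log2 change was -2.22 without that library. The E proteins *Tcf4* and *Tcf12*, partners of *Tcf3*, had log2 changes of -0.33 (edgeR adjusted p = 0.0291) and 0.042 (0.816).

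The gene that rose was *Ikzf4*, which encodes the Ikaros family member Eos. It was at 0.252, 0.0834 and 0.0551 CPM in wt, from 14, 5 and 4 reads, and at 2.76, 2.59 and 2.12 CPM in hnRNP L deficient cells, from 178, 169 and 158 reads. The groups did not overlap and the log2 fold change was 4.27 with a standard error of 0.551 (edgeR adjusted p = 0.0123), or 4.07 without wt replicate 2. Its call was lost without wt replicate 3 or any 1 hnRNP L deficient library, with log2 fold changes of 3.89 to 4.38 and edgeR adjusted p-values of 0.0530 to 0.0867. Reads fell on 25 of its 27 exon bins in hnRNP L deficient replicates 2 and 3 and on 11 in wt, and in 16 bins both hnRNP L deficient libraries were above the 3 wt libraries. These bins were looked at after the value of the gene was seen. They hold largely the same reads as the gene count and are no separate evidence. *Ikzf4* passed the expression filter through its hnRNP L deficient libraries, and a gene that passes in this way alone has to be higher. The noncoding gene *Gm26876* overlaps *Ikzf4* on the opposite strand, and it was at 0.214 CPM or less in every library. *Ikzf1*, *Ebf1*, *Pax5* and *Tcf7* also overlap genes of the opposite strand, and the strand setting of the counting is not known. The fifth family member, *Ikzf5*, did not pass the test, with a log2 change of -0.082 (edgeR adjusted p = 0.509).

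**Figure D5:**
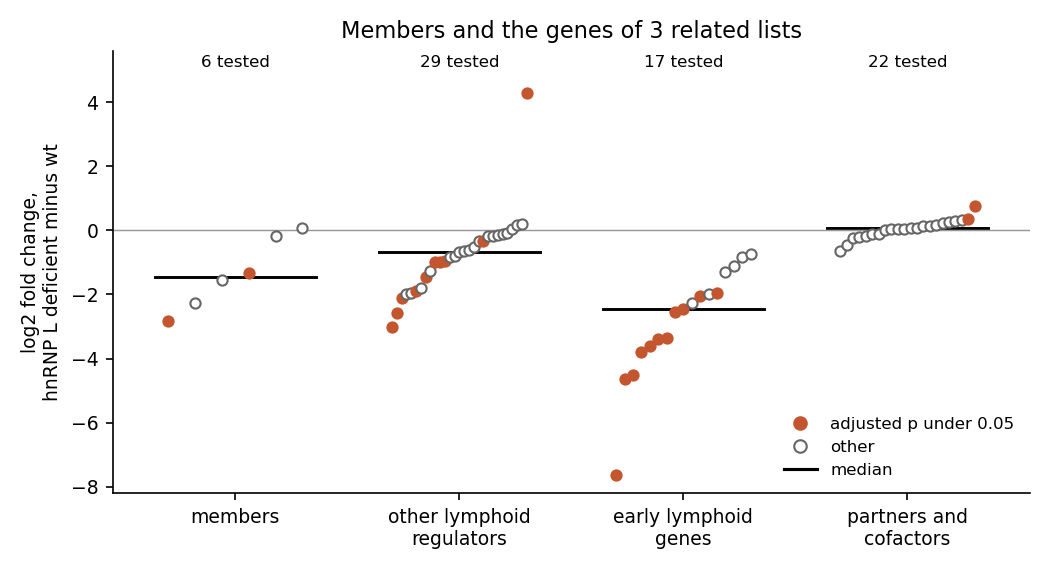
log2 fold change (hnRNP L deficient minus wt) of each tested gene among the members and in 3 related lists, with genes at an adjusted p-value under 0.05 filled in orange and the median of each list as a black line. The medians are -1.44 for the members, -0.68 for other lymphoid regulators, -2.45 for early lymphoid genes and 0.062 for partners and cofactors, and the point above 4 is *Ikzf4*.

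Genes that mark early lymphoid cells, including several known targets of these factors, were listed as well. Of 30 listed genes 11 were called lower and 0 higher, 6 were tested and did not pass and 13 had too few reads to be tested, where 9.85% of all tested genes were called lower. The list was chosen with earlier results of these data known. Some of the 17 tested genes passed the expression filter through their wt reads alone and so had to be lower. The counts and the median given here are thus not a test of the list. Of the 17 genes 15 were lower and 0 higher at an unadjusted p-value under 0.05, where 20.1% of all tested genes were lower. DESeq2 and limma-voom called 0 higher, and the median log2 fold change was -2.45. Among called genes with a mean of at least 1 CPM the large falls included those of *Ighm*, the immunoglobulin heavy chain constant region, with a log2 change of -4.50, the cytokine receptor gene *Flt3* (-3.35), *Cd27* (-2.53) and *Notch1* (-2.04), the receptor that starts the T cell program. *Flt3* was at 17.8, 44.0 and 28.2 CPM in wt and at 2.86, 3.397 and 2.56 CPM in hnRNP L deficient cells (edgeR adjusted p = 0.00985). *Notch1* was at 17.2, 56.4 and 29.1 CPM in wt and at 6.57, 9.38 and 8.95 CPM in hnRNP L deficient cells (edgeR adjusted p = 0.0287). The genes of the recombinase that rearranges antigen receptor genes were named after their values were seen. *Rag1* was at 0.774, 2.22 and 0.853 CPM in wt and at 0, 0.230 and 0.0804 CPM in hnRNP L deficient cells, and *Rag2* was at 0.972, 2.95 and 1.53 CPM in wt and at 0.109, 0.0918 and 0.188 CPM in hnRNP L deficient cells. *Rag1*, *Rag2* and *Ighm* would not have passed the expression filter on their hnRNP L deficient libraries alone. The filter thus favoured a lower level for them, and their calls are no separate evidence. *Rag1* and *Rag2* were called lower, but without wt replicate 2 *Rag1* was not (edgeR adjusted p = 0.0562). Neither was called without wt replicate 3 or any 1 hnRNP L deficient library, where edgeR adjusted p-values were 0.0809 to 0.173 for *Rag1* and 0.0530 to 0.0918 for *Rag2*. In those 4 fits 0 of the early lymphoid genes were called. The terminal transferase gene *Dntt* and the genes *Mme* and *Cd2* had 0 reads in all 6 libraries. This list holds *Flt3*, which also marks multipotent progenitors, and *Ighm* and others that are markers of mature lymphocytes, whose summed level is given above.

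Cofactors and partners through which the members act formed the last list. All 22 were tested, 2 were called higher, 0 lower and 20 did not pass, and the median log2 fold change was 0.062. Over all tested genes 9.32% were called higher and 9.85% lower. At an unadjusted p-value under 0.05, 4 were higher and 4 lower, where 17.6% of all tested genes were higher and 20.1% lower. Of the other tools limma-voom called 3 higher and 5 lower, whereas DESeq2 called 3 higher and 0 lower. *Chd3*, an ATPase of the NuRD complex with which Ikaros associates, was at 19.4, 18.5 and 25.5 CPM in wt and at 28.8, 39.6 and 39.6 CPM in hnRNP L deficient cells, a log2 change of 0.77 (edgeR adjusted p = 0.0287). *Gatad2a*, another subunit, had a log2 change of 0.36 (edgeR adjusted p = 0.0268). *Chd4*, the abundant ATPase of the complex, had 0.082 (0.495), and *Ctnnb1*, which encodes the partner of TCF-1 and LEF-1, had 0.027 (0.827).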

How the data were processed

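Stranded mRNA libraries of sorted Lin-cKit+ FL cells from 3 wt and 3 hnRNP L deficient embryos were analysed, grouped by the genotype labels. Reads had been aligned by the authors with TopHat2 2.0.10 to GRCm38, and they deposited raw counts per Ensembl gene (HTSeq) and per exon bin, without normalization. The Ensembl release and the strand setting of the counting are not given in the sources used here, and a read can count on several bins. Rows of unassigned reads were left out of library sizes.

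Genes were tested with edgeR 4.0.16 (R 4.3.3), using TMM factors, the default expression filter and robust quasi-likelihood fits over all genes. A standard error was obtained by dividing each log2 fold change by the root of its F statistic. diffSpliceDGE was run on bins whose mean was 10 reads or more. Alternatives were DESeq2 1.42.0, limma-voom (limma 3.58.1), other scalings and filters, a DEXSeq model fitted with DESeq2, leaving out each library and, added later, a block for the first part of the embryo number. The steps were tested on simulated data.

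The members and gene lists were chosen with earlier results of these data known. Named were all members, *Hnrnpl*, up to 5 called genes a direction and list with the largest change at a mean of at least 1 CPM, the 3 genes most like each member with that mean, and the bin with the smallest p in each member. Exceptions are stated, and 1 gene that the rule names is not reported here. Positions are from GENCODE vM21, as are the exon sequences. Bins were placed only where their number equalled that of the annotation, as for 54.1% of single-gene units of at least 5 bins, and an equal number does not show that the borders are equal. An exact test of 3 against 3 libraries cannot go below p = 0.1.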

Additional observations from a re-analysis of the deposited data

How the results depend on the processing

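The calls depended on the libraries more than on the tool. 2 members were called lower under median-of-ratios factors, total counts, a mean of at least 1 CPM and no robust estimation, 3 with limma-voom or without a filter, and 4 (with *Ebf1* and *Tcf7*) with DESeq2. With 1 library left out the number called lower ranged from 0 to 4. No member was called higher under the 13 alternatives set out at the start. Calls among other lymphoid regulators ranged from 0 to 14 with 1 library left out, those among early lymphoid genes from 0 to 14, and those among partners and cofactors from 0 to 6. Partners and cofactors had 4 calls with total counts and 8 with limma-voom, and early lymphoid genes had 6 at a mean of at least 1 CPM, where fewer genes were tested. The log2 fold change of *Tcf3* reversed to -0.090 with limma-voom and, with 1 library left out, ranged from -0.038 to 0.25, and that of *Ikzf3* ranged from -3.31 to 0.096. For exon bins of the members, the DEXSeq model called 1 (bin 18 of *Tcf3*), and 1 had an unadjusted p-value under 0.05, a threshold chosen after seeing the data. Over all genes 2759 were called, against 4150 with DESeq2, 5288 with limma-voom, 4791 without wt replicate 1, and 5 to 17 without wt replicate 3 or any 1 hnRNP L deficient library. Over all bins 51 were called, against 218 with diffSplice of limma, 560 with the DEXSeq model and 3 to 158 with 1 library left out. The share of higher calls among all genes was 48.6% and 37.8% with total counts. The cause of these differences was not tested. The replicate numbers follow the order of deposit and pair nothing. In a fit chosen after seeing the data, with the first part of the embryo number as a block, 3 members were called lower (with *Ikzf1*) and 1 higher (*Tcf3*), with 17 calls among other lymphoid regulators, 12 among early lymphoid genes, 9 among partners and cofactors and 5334 over all genes. With this block only wt replicate 1 and hnRNP L deficient replicate 1 inform the difference, with 1 residual degree of freedom from hnRNP L deficient replicates 2 and 3.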
